A study of Homo sapiens with 9 samples.

Results

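The 42 genes described here encode collagens, laminins and other proteins of the extracellular matrix, together with the enzymes that crosslink them. They were chosen by name from matrix biology, with earlier results of these data known. Every one was found by its symbol among the 44608 named entries of each library. By role they fell into 16 collagen chains, 9 basement membrane genes, 12 glycoproteins and proteoglycans, and 5 crosslinking enzymes. Of the 42 genes, 41 passed the filter on low counts and entered the test of 14757 genes. The exception was BGN, the small proteoglycan biglycan, which had mean CPM (counts scaled to the size of the library) of 0.406 in siNS, 0.232 in siNFKB2 and 0.377 in siRELB libraries.

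The study measured polyadenylated RNA in U2OS cells, an established human osteosarcoma line, after transient knockdown of either of a pair of NF-kB subunits. A non-silencing siRNA (siNS) served as the control for an siRNA against NFKB2 (siNFKB2) and for an siRNA against RELB (siRELB). In all 3 groups the cells received 75 nM siRNA in total with the same lipid reagent and were harvested after 48 h, and each group had 3 libraries. All groups thus share 1 parental line, the transfection and the time, and the labels do not say whether replicates came from separate cultures, so each p-value measures only the spread between these libraries.

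The matrix is built outside the cell. Collagen chains assemble as trimers in the secretory pathway, are hydroxylated there by enzymes such as the lysyl hydroxylases PLOD1 and PLOD2, and are joined outside by lysyl oxidases. Laminins, type IV collagen, nidogens and perlecan form basement membranes, and fibronectin and thrombospondins bridge the matrix to cell receptors. Bone-forming cells are known for depositing type I collagen. NFKB2 encodes p100, which is processed to p52, and RELB encodes a usual partner of p52 in the non-canonical NF-kB pathway.

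Promoters of members that siNFKB2 moved, and that had an entry among the RefSeq promoters, are shown first. Of the 42 genes, 33 matched an entry. The 5 sequences below belong to members for which siNFKB2 was called different from siNS and, with the same siNFKB2 libraries, from siRELB. COL1A1, COL3A1, COL5A2 and COL8A1 met the same condition. Each run holds 250 bases before and 50 bases from the first start listed for the gene in RefSeq (GRCh38.p14), 5′ to 3′ on the gene's own strand. Capitals mark CCAAT boxes (CCAAT), GC boxes (GGGCGG) and the cAMP response element (TGACGTCA), read on either strand. COL5A1 lies at chr9:134641553-134641852 on the plus strand. The others are on the minus strand, FN1 at chr2:215436019-215436318, FBN2 at chr5:128538196-128538495, LAMA5 at chr20:62367263-62367562 and PLOD2 at chr3:146161135-146161434.
COL5A1: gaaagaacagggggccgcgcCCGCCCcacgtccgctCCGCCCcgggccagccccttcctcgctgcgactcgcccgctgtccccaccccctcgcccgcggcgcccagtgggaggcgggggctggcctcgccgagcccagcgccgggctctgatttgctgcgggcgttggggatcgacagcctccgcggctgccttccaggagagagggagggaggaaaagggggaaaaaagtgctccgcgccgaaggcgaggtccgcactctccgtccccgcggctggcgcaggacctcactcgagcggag
FN1: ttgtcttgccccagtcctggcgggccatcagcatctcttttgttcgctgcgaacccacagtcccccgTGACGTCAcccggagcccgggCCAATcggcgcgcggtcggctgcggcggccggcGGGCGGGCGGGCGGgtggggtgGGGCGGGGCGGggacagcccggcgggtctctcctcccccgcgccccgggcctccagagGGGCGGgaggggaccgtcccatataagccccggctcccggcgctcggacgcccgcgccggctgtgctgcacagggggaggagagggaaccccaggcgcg
FBN2: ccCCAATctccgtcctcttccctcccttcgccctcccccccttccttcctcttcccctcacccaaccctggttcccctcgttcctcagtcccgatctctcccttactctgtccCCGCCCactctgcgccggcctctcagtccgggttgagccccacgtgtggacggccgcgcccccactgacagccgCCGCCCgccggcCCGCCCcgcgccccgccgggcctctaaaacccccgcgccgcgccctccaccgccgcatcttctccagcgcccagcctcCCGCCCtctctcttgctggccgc
LAMA5: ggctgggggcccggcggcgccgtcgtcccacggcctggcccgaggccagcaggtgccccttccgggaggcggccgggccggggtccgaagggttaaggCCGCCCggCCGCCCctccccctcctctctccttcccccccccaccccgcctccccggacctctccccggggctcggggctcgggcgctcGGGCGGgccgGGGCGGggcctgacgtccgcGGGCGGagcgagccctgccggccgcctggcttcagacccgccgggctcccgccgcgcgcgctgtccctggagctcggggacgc
PLOD2: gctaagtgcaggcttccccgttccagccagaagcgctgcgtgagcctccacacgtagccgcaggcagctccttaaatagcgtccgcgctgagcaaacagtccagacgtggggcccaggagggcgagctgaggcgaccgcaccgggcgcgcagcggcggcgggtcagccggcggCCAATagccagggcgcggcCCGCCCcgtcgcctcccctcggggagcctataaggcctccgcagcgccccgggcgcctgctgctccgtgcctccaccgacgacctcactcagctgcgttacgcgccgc

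All 5 of these windows were rich in G and C, from 72% in PLOD2 to 82.7% in LAMA5. The FN1 window held the only cAMP response element among the 33 member promoters, beginning 183 bases before the start, followed by a CCAAT box at 162 bases before it. The PLOD2 window had a CCAAT box 77 bases before the start and 2 copies of ACGTG, the core of the hypoxia response element. ACGTG was also found in the windows of COL5A1 and FBN2, from 224 and 97 bases before the start, and both genes were called lower in siNFKB2. Over the 33 promoters, a GC box was present in 27 (81.8%), against 67.9% of 10956 promoters of tested genes and 44.6% of all 27305. A CCAAT box was present in 10 (30.3%, against 36% of promoters of tested genes). The AP-1 letters TGANTCA were found in 0 of 33 (5.23% of tested genes), TATAAA in 3 (9.09% against 5.93%) and ACGTG in 6 (18.2% against 26.2%). The NF-kB consensus motif, searched on both strands, was present in 5 of 33 (15.2%), against 13% of promoters of tested genes and 10.8% of all. Those 5 were COL6A2, COL7A1, LAMB1, NID1 and FBLN1. Of the 8 members that were called lower in siNFKB2 libraries and had a promoter entry, 1, NID1, held the consensus. The GC box letters can overlap the NF-kB consensus, as in NID1, where they begin 151 and 147 bases before the start. A match is a stretch of letters and not a measured binding site.

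The targets were checked in each library. NFKB2 stood at 80.7, 127 and 117 CPM in siNS replicates 1 to 3 and at 5.26, 22.9 and 48.5 CPM in siNFKB2, so the depletion differed between the siNFKB2 libraries. RELB stood at 17.1, 30.3 and 34.2 CPM in siNS and at 2.66, 4.66 and 5.36 CPM in siRELB. Libraries held 15011789 to 19279572 counts. The 3 libraries numbered 1 stood apart from the others in their groups, most in siNS, where replicate 1 differed from replicate 2 by a chi-square of 83.8 per degree of freedom, the largest within a group. Across the 41 members tested, siNS replicate 1 minus the mean of siNS replicates 2 and 3 correlated with the GC content of the gene's exons (Pearson r = -0.79 across genes, which share the libraries). The same r for the siNFKB2 to siNS difference was -0.10. The members' GC content had a median of 52.1%, against 47.9% over all genes. Of 7 markers of mesenchymal cells, VIM made up most of the sum (means of 2950, 2360 and 2340 CPM in siNS, siNFKB2 and siRELB), CD44 and THY1 were present, S100A4 was at 9.95 to 14.9 CPM and NT5E was near 0 (means up to 0.356 CPM). Their summed level ranged from 3560 to 4220 CPM in siNS, 3350 to 3600 in siNFKB2 and 3020 to 3450 in siRELB. The defining markers of mature osteoblasts, SP7, BGLAP and IBSP, were at or near 0 in all 9 libraries. Of 7 epithelial markers KRT18 (means of 523, 488 and 402 CPM) and KRT8 (267, 139 and 263 CPM) were high, CDH1 and EPCAM had means of 1.47 to 3.34 CPM, and KRT19 and ESRP1 were near 0. The epithelial sum ranged from 636 to 941 CPM in siNS, 578 to 684 in siNFKB2 and 642 to 728 in siRELB, and its part in the matrix results was not tested. The sum of 6 endothelial markers was 2.73 to 4.83 CPM over all libraries, with PECAM1 and TEK the highest. The sum of 7 blood markers was 19.5 to 30 CPM, nearly all from CD68 (means of 14.9 to 21 CPM) and HBB (3.05 to 5.92), with CD3E at 0.

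Levels between genes can be compared only per exon length, here as CPM per kb of exon (GENCODE 29). On that scale the mean over the 9 libraries ran from 299 for SPARC, a collagen-binding glycoprotein of bone, to 0.0439 for the large proteoglycan VCAN. THBS1 (93.3), COL1A1 (79.5), PLOD1 (77.4), AGRN (67.6) and FN1 (52.4) followed SPARC. Of the 42 genes, 34 had a mean of at least 5 CPM, and the other 8 were COL1A2, COL18A1, LAMA4, NID2, THBS2, BGN, VCAN and EMILIN1. Type I collagen is usually a trimer with a pair of COL1A1 chains and a COL1A2 chain. In these U2OS libraries the ratio of COL1A1 to COL1A2 per length was 918 ± 154 (SD, n = 3) in siNS, 1140 ± 68.6 in siNFKB2 and 1280 ± 316 in siRELB. COL1A2 was close to absent, at 1.08 ± 0.112 CPM in siNS. The members together took 0.921%, 1.13% and 1.11% of the counts in siNS replicates 1 to 3, of those in siNFKB2 0.815%, 0.936% and 0.866%, and of those in siRELB 0.916%, 1.05% and 1.03%.

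Where matrix genes changed after NFKB2 knockdown they mostly fell. Of the 41 members tested, edgeR's quasi-likelihood test called 14 in siNFKB2 against siNS at an adjusted p under 0.05 (34.1%), where 26.2% of all 14757 genes were called. It called 13 lower (31.7%, against 13.5% of all genes) and 1, PLOD2, higher (2.44%, against 12.7%). The members' median log2 fold change was -0.28, with a median of 0 over all genes, and 28 of the 41 were negative. With the trend on GC content and length removed the median was -0.15, beside -0.03 over all genes. In that fit 18 members were called, where 34.8% of all genes were called. In 17 of the 41 (41.5%) the siNFKB2 and siNS libraries did not overlap, against 37.5% of all genes. In bulk RNA, fewer cells that express a gene and less RNA per cell cannot be told apart. With the replicate number as a block 23 members were called, 18 lower and 5 higher, where 40.2% of all genes were called. Without the 3 libraries numbered 1 the count was 22, where 45% of all genes were called. The block added COL16A1, LAMC1, LOXL1, LOXL2 and PLOD1 as lower and COL6A1, COL6A3, FBN1 and NID2 as higher.

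**Figure D1:**
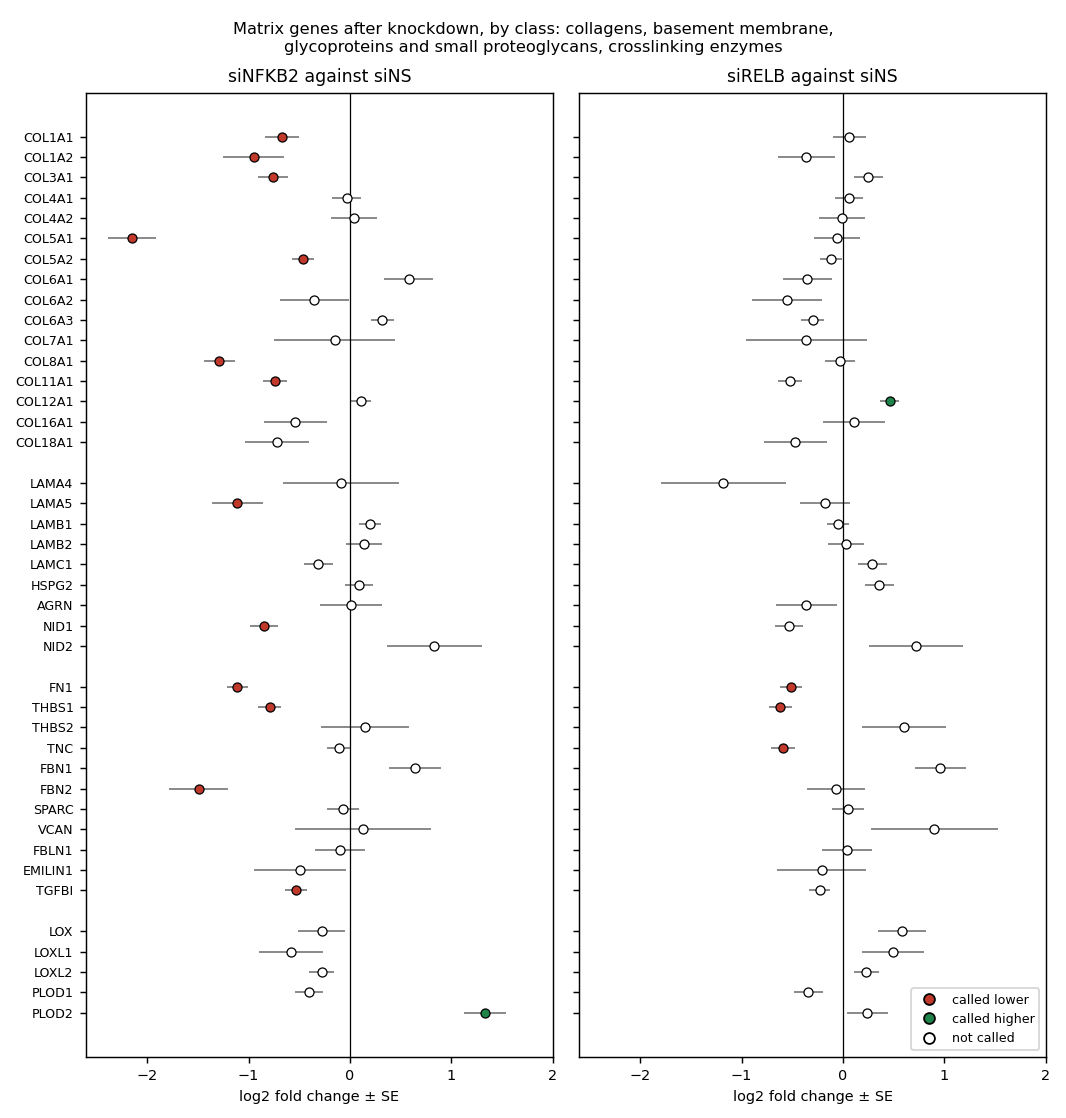
Log2 fold change (x axis, ± SE) of each of the 41 members tested (y axis, in 4 blocks by class) in siNFKB2 and in siRELB against the same 3 siNS libraries; filled points were called. In siNFKB2 13 members lie to the left as called lower and PLOD2 alone is called higher, whereas in siRELB 3 are called lower and 1 higher.

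Several collagen genes fell with NFKB2 knockdown. Of the 16 collagen chains, 7 were called lower, with a class median of -0.50. These were the 6 chains of types I, III, V and XI in the set, COL1A2 among them at about 1 CPM, and COL8A1. COL5A1 (chr9:134641774-134844843, plus strand) encodes the alpha 1 chain of type V collagen, which starts and limits the growth of type I fibrils. In this and the following genes library values are given in the order of replicates 1 to 3. COL5A1 stood at 107, 210 and 203 CPM in siNS, 37.7, 41.7 and 38.2 CPM in siNFKB2, and 136, 184 and 178 CPM in siRELB. Every siNFKB2 library lay below every other library, siNS replicate 1 being the lowest of the rest. COL5A1 fell to 22.6% of siNS (log2 -2.15 ± 0.237 SE, adjusted p = 0.000363) and to 23.6% of siRELB (log2 -2.09 ± 0.237, adjusted p = 0.000377). Its partner COL5A2 (chr2:189031896-189225312, minus strand) stood at 61.5, 60.6 and 55.4 CPM in the siNS libraries, 41.7, 41 and 46.2 in siNFKB2 and 52.2, 54.4 and 56.8 in siRELB. COL5A2 fell as well, by a smaller value, with log2 -0.46 ± 0.109 against siNS (adjusted p = 0.0114), a call lost without siNFKB2 replicate 2 (adjusted p = 0.0705), and -0.34 ± 0.109 against siRELB (adjusted p = 0.0407, a call kept in 11 of 20 alternatives). Per exon length the ratio of COL5A1 to COL5A2 was 1.16, 2.31 and 2.44 in the siNS libraries, 0.602, 0.678 and 0.551 in siNFKB2 and 1.74, 2.26 and 2.09 in siRELB. COL5A1 RNA thus exceeded COL5A2 RNA in every siNS and siRELB library and was below it in every siNFKB2 library.

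COL3A1 encodes type III collagen, a fibrillar collagen of soft tissues, and lies beside COL5A2 with 19149 bases between them (chr2:188974320-189012746, plus strand). It stood at 29.2, 32.2 and 26.9 CPM in the siNS libraries, 15.8, 20.1 and 16.1 in siNFKB2 and 37.5, 31.1 and 36.4 in siRELB. The siNFKB2 libraries did not overlap either other group, and COL3A1 fell against siNS (log2 -0.76 ± 0.145, adjusted p = 0.0041) and against siRELB (-1.01 ± 0.145, adjusted p = 0.000991). COL1A1 (chr17:50183289-50201632, minus strand), the main chain of type I collagen, stood at 649, 1070 and 905 CPM in the siNS libraries, 518, 570 and 570 in siNFKB2 and 844, 1000 and 896 in siRELB. It fell against siNS (log2 -0.67 ± 0.164, adjusted p = 0.0142, and 0.0502 without siNS replicate 3) and against siRELB (-0.73 ± 0.164, adjusted p = 0.00967). COL1A2 was called lower against siNS (log2 -0.95 ± 0.30, adjusted p = 0.0395) from levels near 1 CPM, and kept the call in 7 of 19 alternatives. Of 7 markers of the osteoblast lineage, whose main product is type I collagen, 4 were tested, and the summed level of the list ranged from 36 to 48.9 CPM in siNS, 70.3 to 80.1 in siNFKB2 and 39.5 to 48.6 in siRELB. Within it RUNX2 had means of 4.6 CPM in siNFKB2 and 9.45 in siRELB, and ALPL of 20.6 and 7.19 CPM. The part of these markers in the collagen result was not tested.

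COL11A1 encodes a chain of type XI collagen, the cartilage relative of type V. It stood at 64.3, 68.4 and 61.8 CPM in the siNS libraries, 39.8, 42.1 and 34.7 in siNFKB2 and 47.4, 41.9 and 46.1 in siRELB. It fell in siNFKB2 against siNS (log2 -0.74 ± 0.118, adjusted p = 0.0018). Both knockdown groups lay below siNS and overlapped each other, and the siRELB difference (log2 -0.52 ± 0.118) missed the threshold (adjusted p = 0.0536) and passed it with the replicate block (adjusted p = 0.0121). COL8A1 (chr3:99638475-99799226, plus strand) encodes a network-forming collagen of vessel walls and the cornea. It stood at 22.9, 27.7 and 21.5 CPM in the siNS libraries, 10.6, 10.2 and 8.67 in siNFKB2 and 26.1, 22.2 and 22.2 in siRELB. COL8A1 fell to 40.9% of siNS (log2 -1.29 ± 0.153, adjusted p = 0.000436) and 41.8% of siRELB (-1.26 ± 0.152, adjusted p = 0.000486), with siNS and siRELB overlapping.

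**Figure D2:**
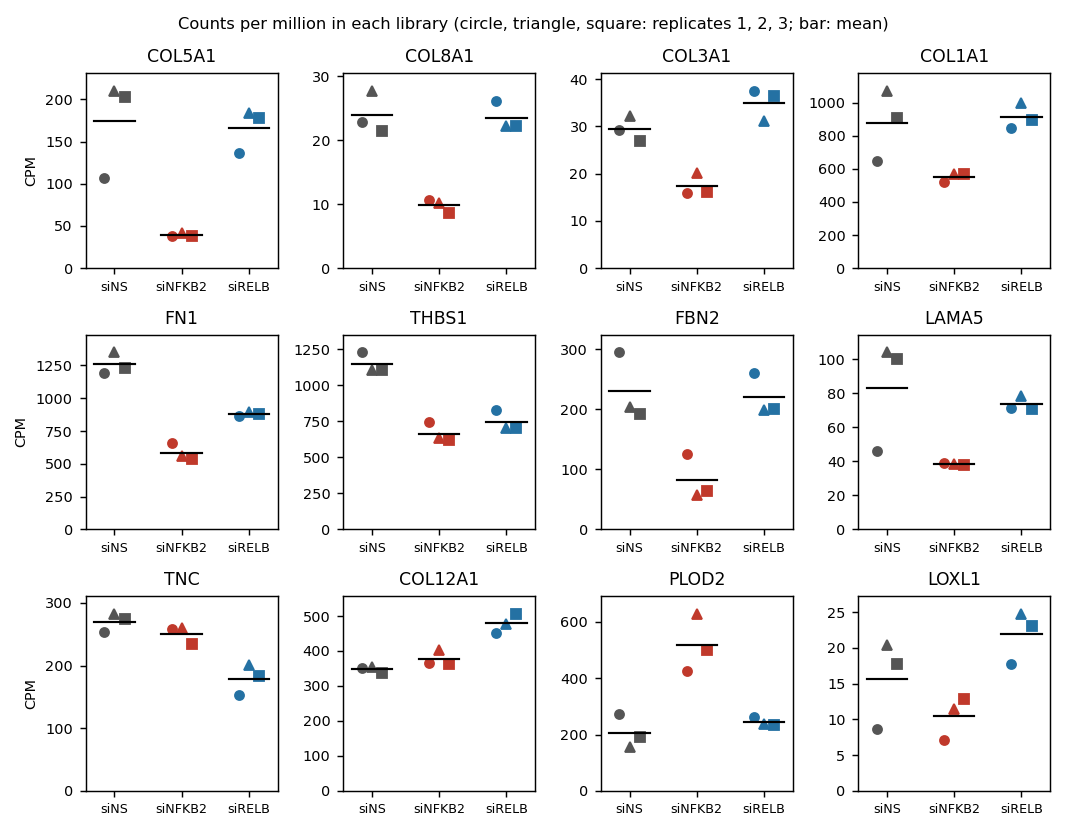
CPM (y axis, from 0) in each of the 9 libraries for 12 members; symbols are replicates 1 to 3 and the bar is the group mean. The siNFKB2 points of COL5A1 (37.7 to 41.7) and COL8A1 (8.67 to 10.6) lie below all siNS and siRELB points, and those of PLOD2 (426 to 630) above all of them.

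The type IV and type VI chains were not called lower. COL4A1 and COL4A2, the main chains of basement membrane collagen, lie head to head on chromosome 13 and had log2 fold changes of -0.03 ± 0.142 and 0.04 ± 0.223 in siNFKB2 against siNS. Their ratio per length was 0.748 ± 0.182 in siNS, 0.677 ± 0.0257 in siNFKB2 and 0.749 ± 0.0261 in siRELB. Type VI collagen, which forms beaded filaments around cells, is made of COL6A1, COL6A2 and COL6A3 chains. COL6A1 stood at 94.8, 171 and 179 CPM in the siNS libraries, 164, 272 and 226 in siNFKB2 and 103, 127 and 118 in siRELB. It was higher in siNFKB2 than in siRELB (log2 0.93 ± 0.245, adjusted p = 0.0186), a call lost without siNFKB2 replicate 2, siRELB replicate 1 or siRELB replicate 3 (highest adjusted p = 0.0744). Against siNS its log2 value was 0.58 ± 0.243 (adjusted p = 0.107, and 0.00324 with the replicate block). COL6A3 stood at 202, 254 and 226 CPM in the siNS libraries, 255, 287 and 308 in siNFKB2 and 182, 182 and 192 in siRELB, so the 3 groups did not overlap. COL6A3 was higher in siNFKB2 than in siRELB (log2 0.61 ± 0.117, adjusted p = 0.0041), and the siNS group lay between (against siNS 0.32 ± 0.117, adjusted p = 0.0703, and 0.0206 with the block). COL6A2, the third chain, had a log2 value of -0.35 ± 0.341 against siNS, and the ratio of COL6A1 to COL6A2 per length was 1.4, 0.958 and 0.87 in the siNS libraries, 1.71, 1.87 and 2.01 in siNFKB2 and 1.27, 1.05 and 1.11 in siRELB. That ratio was higher in every siNFKB2 library than in any other library.

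COL12A1, whose product coats collagen fibrils, stood at 352, 354 and 338 CPM in the siNS libraries, 365, 402 and 362 in siNFKB2 and 451, 478 and 507 in siRELB. It was called higher in siRELB against siNS and lower in siNFKB2 against siRELB (log2 -0.35 ± 0.0957, adjusted p = 0.0228), both calls resting on the same siRELB libraries. The latter was lost without siNFKB2 replicate 3, siRELB replicate 2 or siRELB replicate 3, and with no filter (highest adjusted p = 0.105). The remaining chains were called in no comparison. COL16A1, another fibril-associated collagen, had log2 -0.54 ± 0.311 in siNFKB2 against siNS, and -0.45 with the replicate block (adjusted p = 0.0444). COL7A1, of the anchoring fibrils of skin, and COL18A1, the source of endostatin, had log2 values of -0.15 ± 0.599 and -0.72 ± 0.318.

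Among the 9 basement membrane genes, 2 were called lower in siNFKB2 against siNS and the class median was 0.01. LAMA5 (chr20:62307955-62367312, minus strand) encodes the alpha 5 chain of laminins. It stood at 46.1, 104 and 100 CPM in the siNS libraries, 38.9, 38.5 and 38.1 in siNFKB2 and 71.5, 78.6 and 70.9 in siRELB. The siNFKB2 libraries lay within 1 CPM of each other and below all others, with siNS replicate 1 nearest to them. LAMA5 fell to 46.2% of siNS (log2 -1.11 ± 0.25, adjusted p = 0.0091) and 52.3% of siRELB (-0.94 ± 0.25, adjusted p = 0.0197), the latter call being lost without siNFKB2 replicate 2, siNFKB2 replicate 3, siRELB replicate 2 or siRELB replicate 3 (highest adjusted p = 0.0683). NID1 (chr1:235975830-236065162, minus strand) encodes nidogen, which joins laminin to type IV collagen. It stood at 169, 129 and 144 CPM in the siNS libraries, 93.1, 81.8 and 70 in siNFKB2 and 106, 103 and 96.8 in siRELB. All 6 knockdown libraries lay below siNS. NID1 fell in siNFKB2 (log2 -0.85 ± 0.139, adjusted p = 0.00198), and in siRELB its value was -0.53 ± 0.138 (adjusted p = 0.0872, and 0.00953 with the block).

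LAMC1, the gamma 1 chain found in most laminins, stood at 341, 314 and 308 CPM in the siNS libraries, 321, 233 and 222 in siNFKB2 and 383, 399 and 394 in siRELB. The siNFKB2 replicate 1 library was inside the siNS range and the other siNFKB2 libraries were below it. LAMC1 was lower in siNFKB2 than in siRELB (log2 -0.60 ± 0.14, adjusted p = 0.0109, and 0.0559 without siNFKB2 replicate 2), and against siNS its log2 value was -0.31 ± 0.14 (adjusted p = 0.128, and 0.0407 with the block). LAMB1 and LAMB2, the beta chains, had log2 values of 0.20 ± 0.106 and 0.14 ± 0.177 against siNS. The ratio of LAMC1 to LAMB1 per length was 1.64 ± 0.193 in siNS, 1.16 ± 0.336 in siNFKB2 and 2.08 ± 0.105 in siRELB. AGRN (agrin) and HSPG2 (perlecan), heparan sulfate proteoglycans of the basement membrane, had log2 values of 0.01 ± 0.305 and 0.09 ± 0.141. AGRN is a case where siNS replicate 1 stood low, at 413 CPM beside 889 and 1050, which widens its error. NID2 and LAMA4 were near 1 CPM, with log2 values of 0.83 ± 0.469 and -0.09 ± 0.573.

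**Figure D3:**
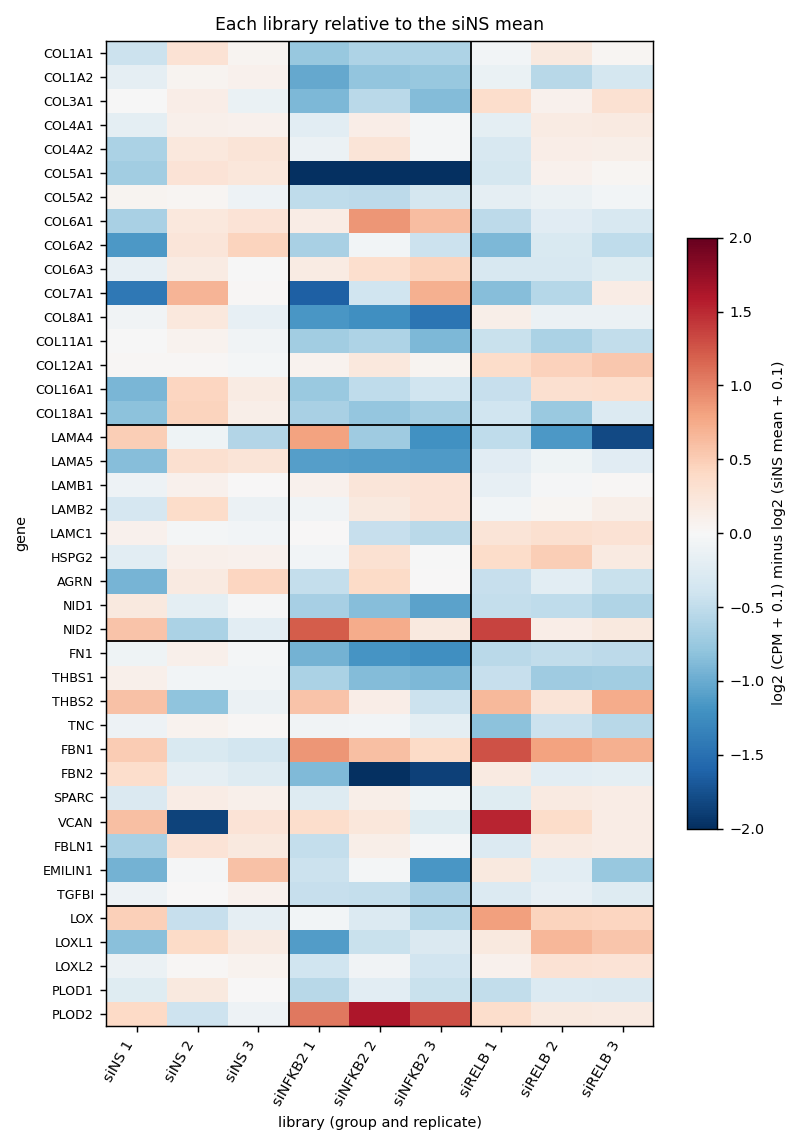
Each member (y axis) in each library (x axis) as log2 (CPM + 0.1) minus log2 of the siNS mean plus 0.1, in the 4 classes from collagens at the top to crosslinking enzymes at the bottom; values beyond 2 in either direction have the end colours. COL5A1, COL8A1, FN1 and FBN2 are blue in all 3 siNFKB2 libraries and PLOD2 is red, while siNS replicate 1 stands low for COL6A2, COL7A1, COL16A1 and AGRN.

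Of 11 glycoproteins and proteoglycans tested (all of the class but BGN), 4 were called lower in siNFKB2 against siNS, and the class median was -0.11. FN1 (chr2:215360440-215436172, minus strand) encodes fibronectin, the integrin ligand on which other matrix proteins assemble. It stood at 1190, 1350 and 1230 CPM in the siNS libraries, 656, 557 and 537 in siNFKB2 and 867, 896 and 881 in siRELB. The 3 groups did not overlap, with siRELB between the other two. FN1 fell to 46.4% of siNS in siNFKB2 (log2 -1.11 ± 0.107, adjusted p = 0.000254) and to 70% in siRELB (-0.51 ± 0.106, adjusted p = 0.0385). It was lower in siNFKB2 than in siRELB (-0.60 ± 0.106, adjusted p = 0.00296). THBS1 (chr15:39581079-39599466, plus strand) encodes thrombospondin 1, which binds cell receptors and activates latent TGF-beta. It stood at 1230, 1110 and 1110 CPM in the siNS libraries, 744, 632 and 619 in siNFKB2 and 832, 706 and 707 in siRELB. All 6 knockdown libraries were below siNS, and they overlapped each other. THBS1 fell in siNFKB2 (log2 -0.79 ± 0.115, adjusted p = 0.00112) and in siRELB (-0.62 ± 0.114, adjusted p = 0.0272). The direct difference of -0.17 ± 0.114 did not pass the test (adjusted p = 0.299).

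The fibrillins form the microfibrils that scaffold elastin, and their values had opposite signs in siNFKB2. FBN2, the fibrillin of developing tissue (chr5:128257909-128659185, minus strand), stood at 295, 204 and 192 CPM in the siNS libraries, 125, 57.1 and 63.3 in siNFKB2 and 260, 199 and 200 in siRELB. In each group replicate 1 was highest, and every siNFKB2 library was below every other library. FBN2 fell to 35.5% of siNS (log2 -1.49 ± 0.29, adjusted p = 0.00458) and 37.3% of siRELB (-1.42 ± 0.289, adjusted p = 0.00572). FBN1, the fibrillin of adult tissue, stood at 26.1, 14.8 and 14.2 CPM in the siNS libraries, 34, 27.9 and 24 in siNFKB2 and 44.5, 32.2 and 30.2 in siRELB. Its log2 values were 0.64 ± 0.254 in siNFKB2 (adjusted p = 0.09) and 0.96 ± 0.254 in siRELB (adjusted p = 0.0941). With the replicate block these were 0.67 (adjusted p = 0.00142) and 0.98 (adjusted p = 0.00108). The ratio of FBN1 to FBN2 per length was 0.0727, 0.0596 and 0.0605 in the siNS libraries, 0.223, 0.402 and 0.311 in siNFKB2 and 0.141, 0.133 and 0.124 in siRELB. FBN2 RNA was the more abundant per length in all 9 libraries, and the 3 groups of ratios did not overlap.

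TGFBI, an adhesion protein induced by TGF-beta, stood at 107, 116 and 122 CPM in the siNS libraries, 83.2, 83 and 72.9 in siNFKB2 and 94.7, 103 and 96.1 in siRELB. TGFBI fell in siNFKB2 against siNS (log2 -0.53 ± 0.108, adjusted p = 0.00572), with all siRELB libraries between. TNC encodes tenascin C, a glycoprotein of remodelling tissue. It stood at 253, 283 and 275 CPM in the siNS libraries, 258, 260 and 235 in siNFKB2 and 153, 201 and 184 in siRELB. The siNFKB2 and siNS libraries overlapped and all siRELB libraries were lower. TNC was higher in siNFKB2 than in siRELB (log2 0.48 ± 0.12, adjusted p = 0.0148), a call lost without siRELB replicate 1 or siRELB replicate 3 (highest adjusted p = 0.0529). SPARC, the most abundant member per length, had log2 values of -0.07 ± 0.158 in siNFKB2 and 0.05 ± 0.158 in siRELB, and FBLN1 (fibulin 1) of -0.10 ± 0.245 and 0.04 ± 0.245. THBS2, VCAN and EMILIN1 had means of 1.03, 0.652 and 1.63 CPM over the 9 libraries and were called in no comparison.

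Of the 5 crosslinking enzymes, 1 was called higher in siNFKB2 against siNS, and the class median was -0.28. PLOD2 (chr3:146069440-146163653, minus strand) hydroxylates lysines in the ends of collagen chains, which sets the type of crosslink, and is a known target of the hypoxia response. It stood at 273, 155 and 192 CPM in the siNS libraries, 426, 630 and 502 in siNFKB2 and 262, 237 and 234 in siRELB. Every siNFKB2 library was above every other. PLOD2 rose to 252% of siNS (log2 1.33 ± 0.205, adjusted p = 0.00149) and 213% of siRELB (1.09 ± 0.204, adjusted p = 0.00379). PLOD1, which acts on the helical part of the chains, had log2 values of -0.40 ± 0.139 in siNFKB2 (adjusted p = 0.0586, and 0.00417 with the block) and -0.34 ± 0.139 in siRELB. The ratio of PLOD2 to PLOD1 per length was 0.463, 0.194 and 0.273 in the siNS libraries, 0.902, 1.05 and 0.977 in siNFKB2 and 0.528, 0.409 and 0.409 in siRELB. The siNFKB2 ratios did not overlap the others.

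The 3 lysyl oxidases among the 42 genes were called lower in siNFKB2 than in siRELB, although not against siNS. LOX, which oxidises lysines of collagen and elastin, stood at 86, 44.5 and 54 CPM in the siNS libraries, 59.1, 50.9 and 41.6 in siNFKB2 and 109, 84 and 82.5 in siRELB. LOXL1, needed for elastic fibres, stood at 8.68, 20.4 and 17.7 CPM in the siNS libraries, 7.14, 11.4 and 12.8 in siNFKB2 and 17.8, 24.8 and 23 in siRELB. LOXL2, which acts on type IV collagen, stood at 142, 157 and 162 CPM in the siNS libraries, 117, 146 and 118 in siNFKB2 and 164, 189 and 187 in siRELB. For each gene all siRELB libraries were above all siNFKB2 libraries, and siNS overlapped siNFKB2. The log2 differences of siNFKB2 from siRELB were -0.86 ± 0.237 for LOX (adjusted p = 0.0227), -1.07 ± 0.312 for LOXL1 (adjusted p = 0.0288) and -0.50 ± 0.122 for LOXL2 (adjusted p = 0.013). Against siNS the siNFKB2 values were -0.28 ± 0.236, -0.58 ± 0.313 and -0.28 ± 0.121. The siRELB values against siNS had the opposite sign, at 0.58 ± 0.235, 0.49 ± 0.306 and 0.23 ± 0.121 (adjusted p = 0.255, 0.455 and 0.38). The direct differences thus hold a lower siNFKB2 value and a higher siRELB value. The LOX call was lost without siNFKB2 replicate 2, siNFKB2 replicate 3, siRELB replicate 1 or siRELB replicate 2 (highest adjusted p = 0.0997). The LOXL1 call was lost without siNFKB2 replicate 1, siNFKB2 replicate 2, siRELB replicate 2 or siRELB replicate 3 (0.0935), and the LOXL2 call without siNFKB2 replicate 3, siRELB replicate 2 or siRELB replicate 3 (0.0585).

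**Figure D4:**
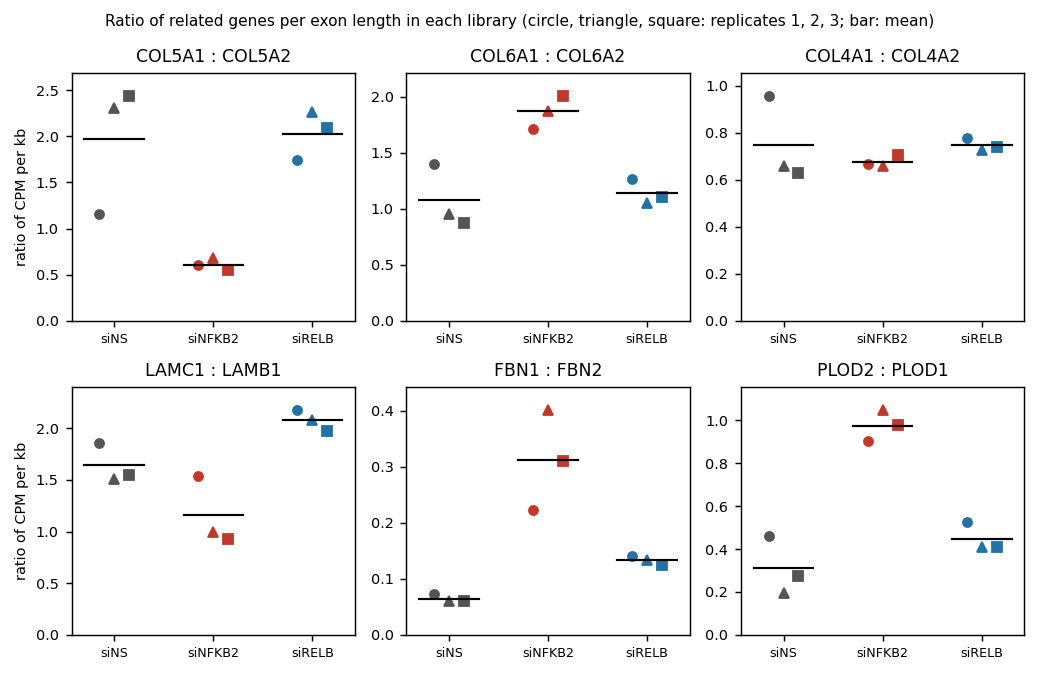
Ratio of CPM per kb of exon (y axis, from 0) between related genes in each library, with replicates 1 to 3 as symbols and the mean as a bar. The siNFKB2 libraries lie apart from all others for COL5A1 to COL5A2 (0.551 to 0.678), COL6A1 to COL6A2 (1.71 to 2.01), FBN1 to FBN2 (0.223 to 0.402) and PLOD2 to PLOD1 (0.902 to 1.05), and overlap siRELB or siNS for the type IV collagen and laminin pairs.

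Few matrix genes were called after RELB knockdown, and the calls changed with the libraries used. Of 41 members, 4 were called in siRELB against siNS (9.76%, against 2.03% of all genes tested), 3 lower (against 0.813% of all genes) and 1 higher (against 1.21%). THBS1 (log2 -0.62 ± 0.114, adjusted p = 0.0272), TNC (-0.59 ± 0.121, adjusted p = 0.0382) and FN1 (-0.51 ± 0.106, adjusted p = 0.0385) fell, and COL12A1 rose (0.46 ± 0.0957, adjusted p = 0.0401). The siRELB and siNS libraries did not overlap for 13 members (31.7%), against 22.5% of all genes. The members' median was -0.05, beside -0.02 over all genes. With the replicate block 10 members were called, where 10.6% of all genes were. The block added COL11A1, NID1, PLOD1, FBN1, LOX and LOXL1, the first 3 as lower and the others as higher. None of the 4 was called under every alternative. Without siNS replicate 2, siNS replicate 3, siRELB replicate 2 or siRELB replicate 3, edgeR called 0 members, with 8, 8, 9 and 10 at an unadjusted p under 0.05. DESeq2 on all libraries called 7, beside 6.59% of all genes. Without the 3 libraries numbered 1, 16 were called, beside 22.8% of all genes. The share of all genes called was 0.398% without siNS replicate 2 and 0.166% without siNS replicate 3. It was 0.099% without siRELB replicate 2 and 0.198% without siRELB replicate 3. Without siNFKB2 replicate 2 or siRELB replicate 1 the count was 1 (0.99% and 1.22% of all genes), without siNFKB2 replicate 3 it was 2 (1.17%), and without siNS replicate 1 it was 10 (12%).

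The knockdowns were then compared with each other, which tests whether their effects differ. Against siRELB, siNFKB2 had 17 of 41 members called (41.5%, against 26.8% of all genes), 13 lower (31.7%, against 14.4%) and 4 higher (9.76%, against 12.3%). The 4 higher were PLOD2, COL6A1, COL6A3 and TNC. The median was -0.27, beside 0.02 over all genes, and the libraries did not overlap for 21 members (51.2%, against 46.1% of all genes). Of the 17 calls, 8 were called under every alternative: COL5A1, COL8A1, COL3A1, FN1, PLOD2, COL6A3, FBN2 and COL1A1. Without siNFKB2 replicate 2 the count was 11, without siRELB replicate 3 it was 10 and without the 3 libraries numbered 1 it was 22 (44.3% of all genes). For FN1 both the comparison with siNS and this one passed. For COL5A1, COL8A1 and FBN2 the siRELB values against siNS were -0.06 ± 0.226, -0.03 ± 0.147 and -0.07 ± 0.283.

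Other matrix genes, in 5 lists of 148 genes also chosen with earlier results known and not including the 42, gave a wider view. Of 100 that passed the filter, 27 were called lower and 10 higher in siNFKB2 against siNS, beside 13.5% and 12.7% of all genes. Of 29 genes for collagen folding, secretion and processing, 7 fell and 2 rose (median -0.28). P3H4, which assists lysyl hydroxylation, fell from a mean of 47.8 to 13 CPM (log2 -1.88, adjusted p = 0.000412). COLGALT1, which glycosylates hydroxylysine, fell by 0.69 on the log2 scale, P3H2, a prolyl 3-hydroxylase, by 0.94 and LOXL4, a lysyl oxidase, by 0.60. LOXL3, the fifth of that family and named after its value was seen, had log2 -0.42 (adjusted p = 0.0834). Of 20 other proteoglycan genes, 10 fell and 1 rose (median -0.81). SDC1, a transmembrane heparan sulfate proteoglycan, fell from 289 to 92.2 CPM (log2 -1.65, adjusted p = 0.000399). SDC3 (-1.87), the glypican GPC4 (-1.60) and the link protein HAPLN1 (-0.86) fell with it. The 1 that rose was SDC4, of the same family as SDC1 and SDC3, from 527 to 875 CPM (log2 0.73, adjusted p = 0.0061). Of 28 elastic fibre and other glycoprotein genes, 6 fell and 3 rose (median -0.33). EFEMP1, or fibulin 3, fell from 130 to 14.5 CPM (log2 -3.16, adjusted p = 0.000246), EFEMP2, needed for elastic fibre assembly, by 0.92 and IGFBP7 by 1.43, whereas CCN2, a secreted growth factor modulator, rose by 0.51.

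The other laminin and collagen lists were split. Of 12 further laminin and basement membrane genes, 2 rose and 2 fell (median 0.25). LAMA1, the embryonic alpha chain, rose from 408 to 786 CPM (log2 0.94, adjusted p = 0.0093). PXDN, the peroxidase that crosslinks type IV collagen, fell by 1.14 and TINAGL1 by 1.19 on the log2 scale. Of 11 other collagen chains, 2 fell and 2 rose (median -0.19), and COL5A3, the third type V chain, fell from 12.1 to 6.45 CPM (log2 -0.91, adjusted p = 0.0258). COL4A4, a type IV chain of specialised basement membranes, fell from 4.66 to 2.62 CPM (log2 -0.83, adjusted p = 0.0318). The fibrillar chain COL27A1, named after its value was seen, had log2 0.34 ± 0.531 (adjusted p = 0.689). In siRELB against siNS, 3 of the 100 genes were called, close to the 2.03% of all genes: MFAP5, a microfibril protein, rose from 61.4 to 135 CPM (log2 1.13, adjusted p = 0.00362), MATN2, a matrilin, from 14.8 to 42 CPM (1.5, adjusted p = 0.00972), and the syndecan SDC2 from 33.8 to 66.5 CPM (0.98, adjusted p = 0.0121). In siNFKB2 against siNS MFAP5 rose as well (log2 0.51, adjusted p = 0.0126), and MATN2 was not called (-0.14, adjusted p = 0.675). SDC2 fell in siNFKB2 against siNS (log2 -0.84, adjusted p = 0.00285). Between the knockdowns, siNFKB2 had 33 of the 100 genes lower and 9 higher than siRELB, beside 14.4% and 12.3% of all genes. The direct difference for SDC2 was -1.81 (adjusted p = 0.000134).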

How the data were processed

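Polyadenylated RNA of 9 U2OS libraries (siNS, siNFKB2 and siRELB, 3 each, grouped by their titles) was analysed from the read counts per gene symbol that the authors deposited. Per the submitters' processing notes, Trimmomatic 0.38, STAR 2.7.1a, Subread 1.6.4 and GRCh38.p13 were used. The annotation and strand setting of the counting are not given in these sources, so reads shared with an opposite gene (the largest overlap being 30% of NID2 exon bases with RTRAF) cannot be told apart. Of the entries, 5005 repeat a symbol with a suffix and hold at most 0.0369% of a library's counts, and they were kept apart.

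In R 4.3.3, edgeR 4.0.16 (filterByExpr by group, TMM, 1 model of 3 group means) was fitted to the counts of 14757 genes with quasi-likelihood F tests, and Benjamini-Hochberg adjustment ran over all of them. CPM follow the usual definition with TMM-scaled library sizes, and levels per length use GENCODE 29 exons. Standard errors are derived from each fold change and its F statistic. Gene coordinates come from that annotation (GRCh38) and promoters from RefSeq, with GC content from the annotated transcript sequences. The fit was tested on simulated counts. Alternatives were RLE size factors, DESeq2 1.42.0, other filters, 6 libraries only, the replicate block, GC and length offsets, a mitochondrial rRNA covariate, suffix entries summed, and leaving out libraries.

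Deviations from the group mean correlated at 0.17 to 0.74 in all 9 pairs of same-numbered libraries (10606 genes), which met a rule of over 0.1 in every such pair. The replicate number was used as a block only in alternative fits, and the main model, with its p-values, was unpaired. Differently numbered pairs ranged from -0.74 to 0.66, and those among replicates 2 and 3 could exceed the same-numbered ones (siNS 2 with siNFKB2 3 at 0.66, siNS 3 with siRELB 2 at 0.46). The values set replicate 1 apart and do not show that replicates 2 and 3 are each paired, and the labels do not state a pairing. Members and lists were chosen with earlier results of these data known. All members are accounted for, and per-library values are given for members called in any comparison with a mean of at least 5 CPM. From each related list up to 4 called genes with the smallest adjusted p and a mean of at least 5 CPM are named, except that 1 such gene is not reported here. Of the 148 genes of those lists, 147 were found, with older symbols matched through RefSeq synonyms.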

Additional observations from a re-analysis of the deposited data

How the results depend on the processing

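In siNFKB2 against siNS, members called numbered 14, where 26.2% of all genes were called. They became 23 with the replicate block (40.2% of all genes) and 23 with the GC and length trend removed and the block (45.7%). Without the 3 libraries numbered 1 they came to 22 (45%). They ranged from 12 to 20 when libraries were left out in turn (14.7% to 32.4% of all genes). Of the 14, 11 were called under all 20 alternatives. The median of the members moved from -0.28 to between -0.41 (without the libraries numbered 1) and -0.15 (GC and length trend removed). In siRELB against siNS, 4 members (2.03% of all genes called) became 7 with DESeq2 (6.59%) and 2 with only the 6 libraries compared (0.917%). The replicate block gave 10 (10.6%), the GC and length trend removed 8 (5.57%), and that with the block 13 (15.6%). The mitochondrial rRNA covariate gave 8 (9.02%), and leaving out the libraries numbered 1 gave 16 (22.8%). Leaving out libraries in turn gave 0 to 10 (0.099% to 12% of all genes). In siNFKB2 against siRELB, 17 members (26.8% of all genes called) ranged from 10 to 19 when libraries were left out (14.5% to 32.5%). They came to 21 with the block (41%). Of the called members, the block removed none. Over all genes, siNFKB2 against siNS gave 3870 calls (2231 to 6708 under the alternatives), siRELB against siNS 299 (15 to 3396) and siNFKB2 against siRELB 3949 (2193 to 6594). COL7A1 in siNFKB2 against siRELB turned from 0.21 to -0.91 (adjusted p = 0.0165) with the mitochondrial rRNA covariate, and the cause was not tested. With 3 libraries a group and members such as COL1A2 and LAMA4 near 1 CPM, small differences in those genes were not detectable at this depth.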
